A study of Mus musculus with 2 samples.

Results

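AP-1 is a family of transcription factors that bind DNA as dimers, and 10 of its genes were described in GFP-positive cells sorted from mouse skin. The sort was aimed at keratinocytes, but markers of other skin cells were abundant too, as given below. The members were taken by name from the 50559 genes counted in both libraries. They are the Fos genes (Fos, Fosb, Fosl1 and Fosl2), the Jun genes (Jun, Junb and Jund) and Atf3, Batf and Maff. The study holds 1 group of 2 libraries, called replicate 1 and replicate 2, and was made to set steady-state RNA beside nascent RNA, which was not analysed here. Both libraries came from dorsal skin at postnatal day 21, when the hair follicles rest (telogen), of mice labelled Polr2b.fl.fl.GFP; K14Cre. These mice carry a floxed Polr2b allele with GFP and a Cre recombinase driven by the keratin 14 promoter, which is active in basal epidermis and follicle epithelium. Live GFP-positive cells were sorted after enzymatic digestion, so every library carries the modified Polr2b, and no library without Cre or of undisturbed skin was analysed here.

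Jun proteins pair with themselves or with Fos proteins through a leucine zipper, whereas Fos proteins need a partner. The dimers bind the AP-1 site, and dimers with ATF partners bind the related cAMP response element. Fos, Fosb, Jun, Junb and Atf3 are immediate early genes, transcribed within minutes of growth factors, wounding or stress, and their RNAs are short-lived. In epidermis AP-1 is known for its part in keratinocyte proliferation, differentiation and the response to wounding.

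Replicate 1 held 36692204 counts and replicate 2 held 33489967. Markers of the labelled cell type were abundant, with all 8 basal keratinocyte markers at 10 CPM (counts scaled to a common library total) or more in both libraries and summed levels of 11436 CPM in replicate 1 and 15672 CPM in replicate 2. Markers of other skin cells were abundant as well, and in replicate 1 the fibroblast sum was above the basal keratinocyte sum. All 8 fibroblast markers passed 10 CPM, with sums of 13682 and 6795 CPM in replicates 1 and 2, and all 8 macrophage markers passed it, with sums of 7677 and 8359 CPM. The 6 T cell markers summed to 4.39 and 2.78 CPM, and Trac and Trdc had no count. Markers of Langerhans cells (4 genes) summed to 563 and 438 CPM, of endothelium (5 genes) to 65.7 and 45.0 CPM and of melanocytes (5 genes) to 28.0 and 14.7 CPM. In bulk RNA, fewer cells of a type and less RNA per cell cannot be told apart, and the levels below belong to the whole sorted fraction. The libraries also differed in sex-linked RNA, with 112587 counts of Xist in replicate 1 and 11 in replicate 2. Of 4 Y-linked genes, Eif2s3y had 1 count in replicate 1 and the others none, while replicate 2 had 2394 counts of Uty, 1618 of Ddx3y, 1378 of Eif2s3y and 1113 of Kdm5d. Replicate 1 thus has the RNA of female and replicate 2 that of male animals, although sex is not among the labels, so a difference between these libraries cannot be told apart from one between the sexes.

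All 10 AP-1 genes were detected at 1 CPM or more in both libraries, as were 31.3% of all genes counted. They also passed 10 CPM, which 18.8% of all genes did. Together they held 1.33% of the counts in replicate 1 (exact 95% interval 1.325% to 1.333%) and 1.48% in replicate 2 (1.474% to 1.482%), a mean of 1.40 ± 0.106% (SD, n = 2). Levels between genes are compared as TPM, which divides each count by the deposited gene length before scaling to a common total. The median of the 10 genes was 891 TPM, beside 27.6 TPM over the 9526 genes that passed 10 CPM in both libraries.

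Fos, the founding member of the Fos group, was the most abundant. It had 4222 TPM in replicate 1 and 4229 TPM in replicate 2, which placed it at rank 12 of all genes. The cells had been through enzymatic digestion and sorting, and the effect of these steps on the members' levels was not tested. In TPM, the libraries lay closer to each other for Fos than for any Jun gene. This turned around with basal keratinocyte markers as scale, a setting described below and chosen after seeing the data. The log2 ratio of replicate 1 over replicate 2 was then 0.34 for Fos, -0.01 for Junb, 0.07 for Jun and 0.09 for Jund. Junb, which can act as a weaker activator than Jun or as its antagonist, had 2231 and 2847 TPM in replicates 1 and 2. Atf3, a stress-induced member that represses as a homodimer, had 2362 and 2369 TPM. Fosb, which also encodes a truncated protein without the activation domain of the full form, had 2159 and 2503 TPM. The ranges of Junb, Atf3 and Fosb overlapped, so these 3 cannot be ordered by level, while both Fos values lay above all of theirs. Mean Fos was 1.66-fold above mean Junb.

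Jun, the strongest activator of the Jun group, followed with 992 TPM in replicate 1 and 1199 TPM in replicate 2. Jund, the Jun gene that is expressed most steadily in unstimulated cells, had 627 and 748 TPM. The 2 genes did not overlap, and the ratio of Jun to Jund was 1.58 in replicate 1 and 1.60 in replicate 2. Fosl2, which encodes Fra-2, a later-induced Fos protein of differentiating epidermis, had 246 and 266 TPM. Fosl1, which encodes Fra-1, a target of AP-1 itself that is linked to migration, had 81.3 and 174 TPM. Fosl1 was the member whose 2 values lay farthest apart in ratio.

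The last 2 members were the scarcest by length. Maff, a small Maf protein with no activation domain of its own, had 64.9 TPM in replicate 1 and 63.4 TPM in replicate 2. Batf, known for its roles in lymphocytes and dendritic cells and also lacking an activation domain, had 49.0 and 45.4 TPM, from 656 and 554 counts. Their libraries did not overlap with each other, and neither reached the lower Fosl1 value. Even so, Maff lay at the 86.4 percentile and Batf at the 81.0 percentile of the 15833 genes detected at 1 CPM in both libraries. From Fos to Batf the family spanned ranks 12 to 3007.

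**Figure D1:**
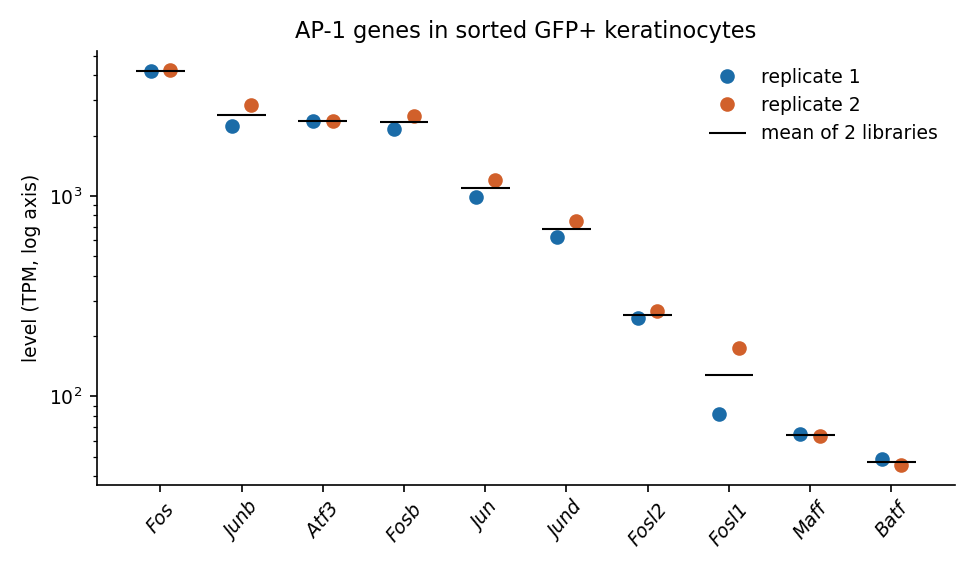
Level of each AP-1 gene in TPM on a log axis, with 1 point per library and a line at the mean of the 2 libraries, ordered from the highest mean to the lowest. Fos stands at 4222 and 4229 TPM, Junb, Atf3 and Fosb overlap below it, and the widest gap between libraries is that of Fosl1.

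The order from Jun to Batf was the same in each library taken alone, and the changes lay among Junb, Atf3 and Fosb. Without division by length Fosb came directly after Fos, at 3549 ± 366 CPM beside 3594 ± 1.04 CPM for Fos (SD, n = 2), because the deposited length of Fosb is 3776 bases and that of Fos 2109. The deposited lengths agree within a few bases with the longest coding transcript in GENCODE M21 for Fos, Fosb, Jun and Atf3. They differ most for Jund (2877 against 1668 bases) and Maff (3285 against 1958). Smaller gaps were those of Fosl2 (7081 against 6537), Fosl1 (1705 against 1864), Batf (904 against 955) and Junb (1840 against 1809). With those transcript lengths Jund came before Jun, so the order of these 2 depends on the length used.

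The 130 bases upstream of the start in the RefSeq table of build GRCm38.p6 are shown for the 4 most abundant genes and for Maff, which holds a complete cAMP response element. Capitals mark TGACG on either strand, which is the first part of that element, TGACGTCA. They also mark ATAAA on the strand as printed, which in Fos is the end of a TATA box, TATAAA. Each stretch ends at the base before the start.
Fos, chr12:85473760-85473889, plus strand: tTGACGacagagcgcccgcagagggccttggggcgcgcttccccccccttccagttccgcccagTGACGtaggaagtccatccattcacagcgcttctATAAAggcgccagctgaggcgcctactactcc
Fosb, chr7:19310046-19310175, minus strand: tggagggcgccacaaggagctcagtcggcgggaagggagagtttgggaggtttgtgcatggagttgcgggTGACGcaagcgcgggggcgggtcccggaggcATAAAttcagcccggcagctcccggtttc
Junb, chr8:84978749-84978878, minus strand: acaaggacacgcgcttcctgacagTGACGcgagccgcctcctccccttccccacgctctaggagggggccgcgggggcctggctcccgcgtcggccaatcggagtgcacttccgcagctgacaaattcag
Atf3, chr1:191183334-191183463, minus strand: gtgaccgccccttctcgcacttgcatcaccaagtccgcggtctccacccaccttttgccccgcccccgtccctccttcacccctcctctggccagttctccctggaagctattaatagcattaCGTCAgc
Maff, chr15:79347390-79347519, plus strand: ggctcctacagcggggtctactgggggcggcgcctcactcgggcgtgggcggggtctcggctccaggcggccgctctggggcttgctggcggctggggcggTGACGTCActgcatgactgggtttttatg

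Of the 10 members, 9 were in the promoter table, with 11 starts, and Fosl1 was not. In the 250 bases before the start, searched on both strands, TGACG stood at 7 of the 11 starts, in Fos, Fosb, Junb, Atf3, Batf and Maff, and at 17.8% of all 32851 starts in the table. The complete element TGACGTCA, which contains TGACG, stood at 1 member start, in Maff, and at 1.55% of all starts. In Fos, TGACG lay 66 and 129 bases before the start, and in Fosb 60 bases before it. ATAAA stood at 5 of the 11 starts, in Fos, Fosb, Batf and Maff, and at 37.3% of all starts. It lay 32 bases before the Fos start and 29 bases before the Fosb start. TATAAA, which contains it, was in the Fos window alone among members and in 12.4% of all starts. The AP-1 site TGANTCA was in none of the members' windows and in 6.75% of all starts, and the CArG box of serum response factor was in none and in 1.47%. These are matches of letters in a short window, and the motifs were chosen after the sequences were seen. Sites more than 250 bases before a start, or with other spellings, were not searched. A motif missing from the window, such as the CArG box in Fos, is therefore not shown to be missing from the gene.

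Fos genes made up about as much of the AP-1 RNA as all other members together. The 4 Fos genes held 51.5% of the summed TPM of the family in replicate 1 and 49.7% in replicate 2, the 3 Jun genes 29.5% and 33.2%, and Atf3, Batf and Maff 19.0% and 17.2%. Fos RNA alone was 32.4% and 29.3% of the sum, and Atf3 made up nearly all of the third group, at 18.1% and 16.4%. Within the Jun group Junb was the largest part, at 17.1% and 19.7% of the family. The summed Fos group exceeded the summed Jun group by 0.69 ± 0.16 (log2, SD, n = 2), with 1.74-fold in replicate 1 and 1.50-fold in replicate 2. On the CPM scale the same difference was 0.97 (log2). With 2 libraries these levels have a spread but no test.

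**Figure D2:**
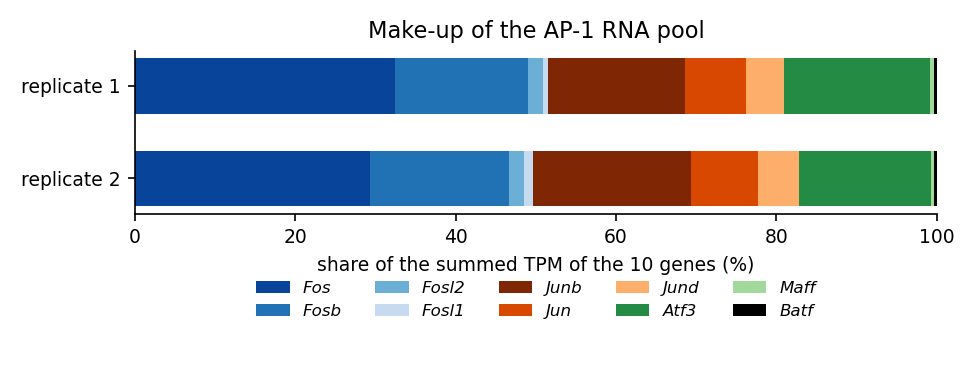
Share of each gene in the summed TPM of the 10 AP-1 genes, as 1 stacked bar per library with Fos genes in blue, Jun genes in orange and brown, and Atf3, Maff and Batf in green and black. Fos, Fosb, Junb and Atf3 fill most of both bars, and the Jun part is 29.5% in replicate 1 and 33.2% in replicate 2.

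Next, each gene was compared between the libraries by an exact binomial test (two-sided, with the library totals as scale), adjusted over all 23690 genes with 10 or more counts in total. The test compares these 2 libraries and covers counting error only. By this test 6 of the 10 members were higher in replicate 2, none was higher in replicate 1, and 4 did not pass. Of all tested genes 44.1% passed, and 16.9% were higher in replicate 2 and 27.2% in replicate 1. Among the 9526 genes that passed 10 CPM, 29.4% were higher in replicate 2 and 34.5% in replicate 1. The median level of these genes was 45.9 CPM, beside 1102 CPM for the members. This test passes smaller differences at higher counts, so these shares are not matched to genes at the members' level. The members' median was -0.16 for the log2 ratio of replicate 1 over replicate 2, beside 0.08 over all tested genes.

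The 3 Jun genes were among the 6. Their log2 ratios, again replicate 1 over replicate 2, were -0.35 for Junb (exact 95% interval -0.36 to -0.33), -0.27 for Jun (-0.29 to -0.25) and -0.25 for Jund (-0.28 to -0.23). In CPM, Junb had 1657 in replicate 1 and 2110 in replicate 2. Jun had 1276 and 1539 CPM, and Jund 728 and 866 CPM. The Fos genes differed unequally. Fosb was at -0.21 (-0.22 to -0.20) and Fosl2 at -0.11 (-0.14 to -0.09), while Fos itself was at 0.00 (-0.01 to 0.01) with an adjusted p of 0.965 in the exact binomial test. Atf3 was at 0.00 (-0.02 to 0.01), Maff at 0.04 (-0.04 to 0.11) and Batf at 0.11 (-0.05 to 0.28), with adjusted p of 0.881, 0.482 and 0.294 in the exact binomial test.

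Fosl1 had the widest difference of the members. It had 2053 counts, or 56.0 CPM, in replicate 1 and 4000 counts, or 119 CPM, in replicate 2, a log2 ratio of -1.09 (-1.17 to -1.02) or 2.13-fold higher in replicate 2. In the annotation GENCODE M21 its exons share 1163 bases with those of Ccdc85b on the opposite strand. Ccdc85b had 2052 and 3332 counts in replicates 1 and 2, a log2 ratio of -0.83. The sources used here do not say whether the counting used strand, so reads of Fosl1 and Ccdc85b may not have been told apart. Markers of differentiating keratinocytes ran the same way, with all 6 spinous markers higher in replicate 2 at a median log2 ratio of -0.74 and summed levels of 3198 CPM in replicate 1 and 6345 CPM in replicate 2. Their part in the Fosl1 difference was not tested. Other members have such overlaps too. Exons of Jund share 877 bases with the antisense RNA Gm11175, which has no entry by that name among the genes counted. Exons of Junb share 173 bases with Prdx2, which had 3083 counts in replicate 1 and 3589 in replicate 2, a log2 ratio of -0.35, beside the 60790 and 70667 counts of Junb. Exons of Jun share 232 bases with the antisense RNA Junos, which had 999 and 855 counts, few beside the 46810 and 51548 counts of Jun.

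**Figure D3:**
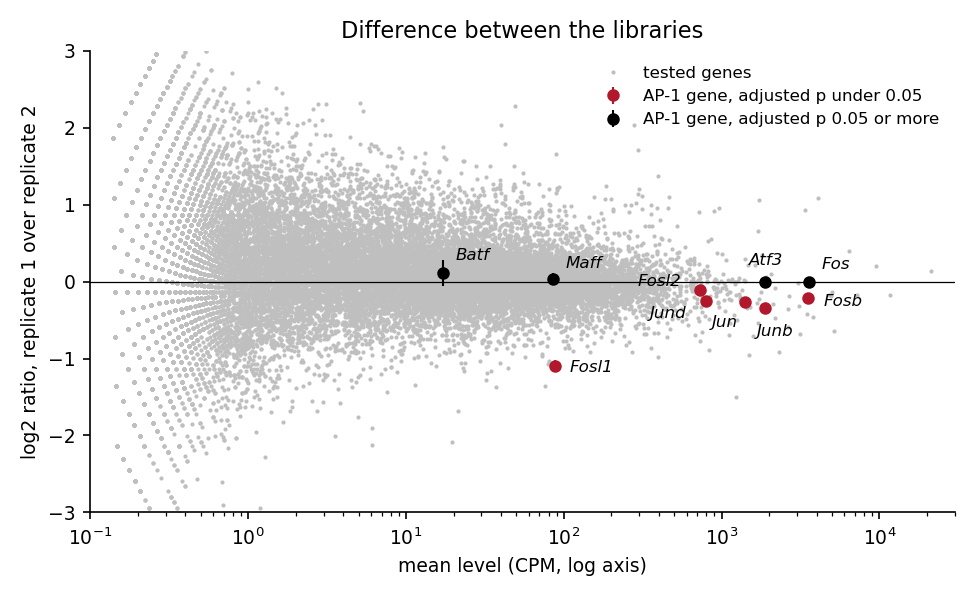
Log2 ratio of replicate 1 over replicate 2 against mean level in CPM (log axis) for tested genes with counts in both libraries, with the 10 AP-1 genes labelled and their exact 95% intervals as bars, many narrower than the points. Genes with ratios past the ends of the axis are not drawn. Fosl1 lies lowest at -1.09, the Jun genes and Fosb between -0.35 and -0.21, and Fos and Atf3 at 0.00.

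The direction of these differences depended on the scaling. With TMM factors or DESeq2 size factors the 6 genes remained higher in replicate 2 and Fos and Atf3 joined them, with Fos at -0.08 and Atf3 at -0.08 (log2) under both. These scalings put 22.7% and 23.2% of all tested genes higher in replicate 2. When the libraries were scaled so that the median of the 8 basal keratinocyte markers was equal, a setting chosen after seeing the data, Fosl1 alone stayed higher in replicate 2, at -0.76, Junb did not pass at -0.01, and the other 8 members were higher in replicate 1. Under the last scaling 57.5% of all tested genes were higher in replicate 1 and 4.06% in replicate 2, and the median of all tested genes lay at 0.42 (log2). Basal markers themselves had a median log2 ratio of -0.34 with library totals, beside 0.94 for fibroblast markers and -0.03 for macrophage markers. Their part in the members' differences was not tested. Against the spread estimated over all genes from these same 2 libraries, which edgeR put at a coefficient of variation of 22.8%, its exact test called none of the 10 members and 0.279% of all tested genes. In that test 1 member, Fosl1, had an unadjusted p under 0.05, with an adjusted p of 0.419, and 7.15% of all tested genes had one.

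Other genes around AP-1 were described from lists of related factors, regulators and targets. Their calls use the exact binomial test with library totals. That test put 27.2% of all tested genes higher in replicate 1 and 16.9% in replicate 2. The 9 further bZIP relatives had a median of 31.3 TPM. Maf, a large Maf factor known in macrophages among other cells, led at 250 ± 18.9 TPM (SD, n = 2), and Batf3, which is needed for a class of dendritic cells, was lowest at 7.55 ± 1.26 TPM. Of the 9, 4 were higher in replicate 1, 3 were higher in replicate 2 and 2 did not pass the exact binomial test. The small Maf relatives Mafk and Mafg stood at 54.6 and 24.3 TPM, beside 64.1 TPM for Maff.

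MAP kinase pathway genes, whose products act upstream of AP-1, had a median of 41.3 TPM over 18 genes, beside 891 TPM for the AP-1 members. Map2k3, which activates p38 kinases, and Mapk3, which encodes ERK1, were highest at 158 ± 22.2 and 153 ± 14.3 TPM (SD, n = 2), and Mapk10, which encodes the neuronal JNK, was lowest at 0.161 TPM from 26 and 15 counts. The other JNK genes, Mapk8 and Mapk9, stood at 13.9 and 17.8 TPM. Of the 18 genes, 10 were higher in replicate 2, 6 were higher in replicate 1 and 2 did not pass.

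The 10 genes for factors that act at the Fos promoter had a median of 39.1 TPM and all passed 10 CPM in both libraries. Stat3 was highest at 167 ± 7.96 TPM, the coactivator gene Crebbp followed at 98.8 ± 1.91 TPM, and Elk1, a partner of serum response factor, was lowest at 14.7 ± 1.76 TPM (SD, n = 2). Srf, which encodes serum response factor, had 106 CPM in replicate 1 and 155 CPM in replicate 2, a log2 ratio of -0.55. In this list 4 genes were higher in each library and 2 did not pass.

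Among 9 genes for the turnover of AP-1 RNA or protein, those for RNA-destabilizing zinc finger proteins led. Zfp36, which encodes tristetraprolin and is itself an immediate early gene, stood at 2975 ± 436 TPM, with a mean between those of Fos and Junb, and Zfp36l2 at 650 ± 44.2 TPM (SD, n = 2). The ubiquitin ligase gene Cop1 was lowest at 13.7 ± 0.404 TPM. In this list 4 genes were higher in replicate 2, 2 were higher in replicate 1 and 3 did not pass.

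Genes known from other work as AP-1 targets were not uniformly high. Of 13, 8 passed 10 CPM in both libraries, and their median was 24.5 TPM. The growth factor gene Hbegf had 286 ± 52.8 TPM and the hyaluronan receptor gene Cd44 228 ± 35.4 TPM (SD, n = 2), while the matrix metalloproteinase gene Mmp10 had 4 and 2 counts. Between the libraries the list split, with 6 of 12 tested genes higher in replicate 1, 5 higher in replicate 2 and 1 that did not pass. The proteinase genes Mmp3 and Mmp9 were higher in replicate 1, at log2 ratios of 1.14 and 1.03. The proteinase gene Mmp13 went the other way, at -1.27 from 39 counts in replicate 1 and 86 in replicate 2. The epidermal envelope genes Sprr1b and Ivl were higher in replicate 2, at -0.98 and -0.68. Fibroblast markers were higher in replicate 1 and spinous markers in replicate 2, and their part in this split was not tested.

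The Egr, Nr4a and Ier genes, further early response genes, had a median of 58.0 TPM over 11 genes. Egr1, a zinc finger factor, was highest at 3969 ± 359 TPM, Ier3 had 724 ± 17.3 TPM (SD, n = 2), and Egr4 was lowest, with 94 counts in replicate 1 and 320 in replicate 2. As for the AP-1 genes, more of them were higher in replicate 2 than in replicate 1, with 9 against 1 and 1 that did not pass. Among all genes that passed 10 CPM, 29.4% were higher in replicate 2 and 34.5% in replicate 1. Their median level was 45.9 CPM, beside 191 CPM for this list, so the shares are not matched for level. The calls used library totals, and for the AP-1 genes the direction depended on the scaling. In this list edgeR's exact test called Egr4 alone, with an adjusted p of 0.0434. The 3 genes closest to Fos in level, by the distance of log2(TPM + 0.5) over the 2 libraries, were Egr1 (0.18), the MHC light chain gene B2m (0.27) and the mitochondrial CYTB (0.29). With 2 libraries of 1 group this likeness is one of level and not of pattern.

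**Figure D4:**
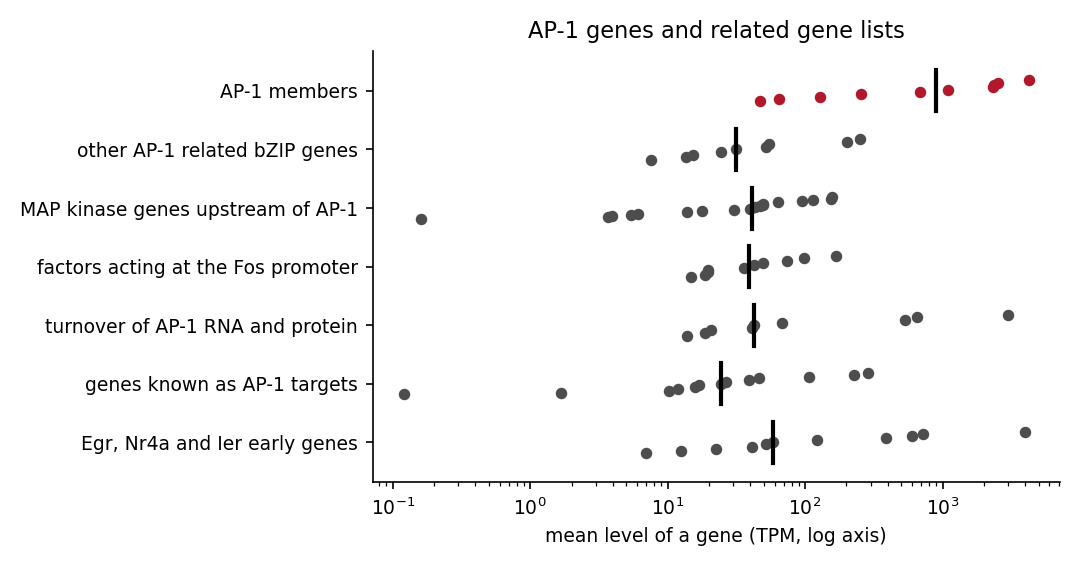
Mean TPM of each gene on a log axis, with 1 row of points per gene list and a bar at the list's median, the AP-1 members in red at the top. The AP-1 median of 891 TPM stands right of every other list median, which lie between 24.5 and 58.0 TPM. Genes of every other list lie within the members' range of 47.2 to 4226 TPM, with Egr1 and Zfp36 the highest of them.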

How the data were processed

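Total RNA was depleted of ribosomal RNA by hybridization and sequenced as paired ends, per the labels' protocols. Per the deposited files, values are raw counts per gene with the gene length in bases. Per the submitters' processing notes, the tool was featureCounts and the build mm39. The sources used here do not give the aligner, the annotation, the strand setting or how multiply mapped reads were handled. Each library is labelled as a replicate of 1 group. The labels do not say how many animals each came from. Their sex-linked RNA shows that they were not made from the same animals.

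From the counts, CPM and TPM were computed over all 50559 genes. TPM use the deposited length, which is that of the whole gene model, and their total includes short abundant RNAs such as Rn7sk. A level of 1 CPM was 36.7 counts in replicate 1 and 33.5 counts in replicate 2. Neighbours in the order of levels were called distinct only where their libraries did not overlap. The binomial test, its Benjamini-Hochberg adjustment at 0.05 and the exact 95% (Clopper-Pearson) intervals used scipy 1.17.1 and statsmodels 0.14.6. The intervals hold no spread between libraries, so they cover counting error only. Reads carried no molecular identifiers, so copies of 1 molecule may be counted more than once, which the intervals do not cover. A quasi-likelihood fit leaves no residual degrees of freedom for 1 library against another, and edgeR 4.0.16 was therefore used for its exact test, with the common dispersion of an intercept-only fit, and for TMM factors. DESeq2 1.42.0 gave size factors. Both tests were checked on simulated counts, the binomial test without spread between libraries and edgeR's test with less spread than was estimated here. The changes simulated for edgeR's test were larger than that of any member. The check therefore does not give the error rates or the power of the tests in these data.

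The members and lists were chosen with earlier results of these data known. All members were named, and of each list the 2 highest and the lowest gene by mean TPM and any without a count, except 1 gene that is not reported here. Other genes of the lists, and the motifs, were named after their values were seen. Promoter sequences are RefSeq's on GRCm38.p6 and transcript lengths and gene overlaps are GENCODE M21's, on another build than the counts, and were used without converting coordinates.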

Additional observations from a re-analysis of the deposited data

How the results depend on the processing

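Detection of all 10 members held at 0.5, 1 and 10 CPM. Leaving out a replicate gave 1.33% to 1.48% for the share of counts, 0.58 to 0.80 for the log2 difference of the Fos and Jun groups, and 8 of 10 members in the same place of the order in either case. The share was 1.46% without Rn7sk and mitochondrial counts. On the CPM scale the Fos over Jun difference was 0.97 (log2) instead of 0.69. With the shortest coding transcript as length, chosen after seeing the data, Fosb came first and 1 member kept its place in the order. Fosb, Fosl1 and Maff have short coding transcripts in GENCODE M21, and the only one of Jund is shorter than its deposited length.

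By the binomial test 6 members differed between libraries with totals and without the count filter, 8 with TMM or DESeq2 factors, and 9 with basal markers as scale. edgeR's exact test gave 0 members and 66 of 23690 genes, instead of 10436 genes, since it adds the spread between the libraries to counting error, and 1693 genes had an unadjusted p under 0.05 there. Signs turned for Fos, at 0.00 with totals, to -0.076 with TMM, -0.082 with DESeq2 and -0.076 in edgeR, and for Maff, at 0.04, to -0.041, -0.048 and -0.041. With basal markers as scale, chosen after seeing the data, the log2 ratios of Fosb, Fosl2, Jun, Jund and Atf3 turned to 0.13, 0.22, 0.067, 0.086 and 0.34, since that scaling shifts every ratio alike. No paired analysis was possible because both libraries belong to 1 group. Two-sided sign-flip tests of a level over 2 libraries cannot give a p below 0.5.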
